A study of Homo sapiens with 9 samples.

Results

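The hypoxia response genes described here are 10 genes fixed by name: the transcription factor HIF1A and 9 genes that are known to be switched on when oxygen is low, namely VEGFA, CA9, ADM, NDRG1, BNIP3, EGLN3, ANKRD37, P4HA1 and SLC2A1. Of the 10 genes, 9 had a row among the 15354 genes of the table, and all 9 were among the 13893 genes that were tested, whereas CA9 was not analysed here. RNA was measured by sequencing in HCT116, an established human colorectal carcinoma cell line, after reverse transfection with siRNA at 25 nM. A control siRNA, siRNA A and siRNA B were each represented by 3 libraries, and siRNA A and siRNA B were both directed against the long non-coding RNA SNHG5. All 9 libraries therefore came from transfected cells of the same line, and no library was labelled with a change in oxygen. The study's methods call the RNA samples of a group biological replicates, so the p-values measure the spread between such replicates of 1 cell line.

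Cells read oxygen through the HIF pathway. In the presence of oxygen the prolyl hydroxylases of the EGLN family mark the HIF1A protein, VHL and its ubiquitin ligase complex remove it, and the hydroxylase HIF1AN blocks what is left from meeting its coactivators. When oxygen is short the protein persists, pairs with ARNT and binds DNA at the letters ACGTG or GCGTG near its target genes, which serve new vessel growth, glucose uptake and glycolysis, pH control, mitophagy and collagen modification. Much of this control acts on the HIF1A protein, which RNA sequencing does not measure. In colorectal carcinoma the pathway is known for its part in angiogenesis and in a glycolytic metabolism.

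The promoters of 4 members are shown because their RNAs carried the results below or because their promoters held the letters most often. A RefSeq window from 250 bases before to 50 bases after the gene start (GRCh38.p14) was at hand for 8 of the 10 members, the exceptions being VEGFA and NDRG1. The 250 bases before the start are printed 5′ to 3′ on the strand of the gene, in lower case, with every match to ACGTG or GCGTG on either strand in capitals, so that a match on the opposite strand reads CACGT or CACGC.
P4HA1 (chr10:73096867-73097116, minus strand): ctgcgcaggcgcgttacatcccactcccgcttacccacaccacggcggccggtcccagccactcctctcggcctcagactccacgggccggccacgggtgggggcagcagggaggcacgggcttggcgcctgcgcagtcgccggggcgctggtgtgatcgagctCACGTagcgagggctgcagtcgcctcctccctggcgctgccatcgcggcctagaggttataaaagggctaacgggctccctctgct
ADM (chr11:10304823-10305072, plus strand): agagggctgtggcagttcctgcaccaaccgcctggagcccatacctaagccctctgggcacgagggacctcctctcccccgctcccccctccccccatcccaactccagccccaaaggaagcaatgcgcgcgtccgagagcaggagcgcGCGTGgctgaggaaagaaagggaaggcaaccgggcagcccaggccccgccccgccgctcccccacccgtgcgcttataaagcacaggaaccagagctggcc
BNIP3 (chr10:131981924-131982173, minus strand): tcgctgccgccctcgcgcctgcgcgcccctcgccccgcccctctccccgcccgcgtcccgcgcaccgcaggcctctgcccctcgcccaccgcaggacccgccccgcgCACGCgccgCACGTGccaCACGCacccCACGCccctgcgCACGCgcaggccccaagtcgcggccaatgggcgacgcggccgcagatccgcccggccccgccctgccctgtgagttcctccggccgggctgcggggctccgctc
ANKRD37 (chr4:185396591-185396840, plus strand): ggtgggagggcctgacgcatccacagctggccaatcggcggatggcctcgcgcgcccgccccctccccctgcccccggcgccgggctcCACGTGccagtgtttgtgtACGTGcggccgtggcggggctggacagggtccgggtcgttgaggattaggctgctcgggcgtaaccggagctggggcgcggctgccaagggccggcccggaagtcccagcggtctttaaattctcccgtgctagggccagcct
In P4HA1 the match began 86 bases before the start and in ADM 101 bases before it. BNIP3 held 6 matches and ANKRD37 held 3, and in each of these promoters the palindrome CACGTG was counted on both strands. HIF1A, CA9 and SLC2A1 had 1 match each in their 300-base window (for HIF1A, the one listed first of 2), that of SLC2A1 lying after the start, and EGLN3 had 0. Thus 7 of 8 members held at least 1 match, compared with 48.4% of 35116 RefSeq windows, and 2 of 8 held 2 or more, compared with 23.1%. ACGTG alone was found in 21.4% and GCGTG alone in 36.5% of all windows. The member windows held from 62% (CA9) to 80.7% (BNIP3) G or C, and the windows they are compared with were not matched for this. These matches describe letters in the windows, not binding sites.

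The libraries held from 15566530 to 23277549 reads, and every member was read at least 85 times in every library, the lowest being EGLN3. The values below are CPM (the reads of a gene brought to a common library total) after TMM scaling, which brings the libraries to a common level for the bulk of genes, and fold changes are differences of mean log2(TMM-scaled CPM + 1), which understates the change of low genes. A gene is said to have risen or fallen where limma gave an adjusted p below 0.05 over all 13893 genes, and both comparisons with control share the same 3 control libraries. SNHG5 itself was measured at 26.5 ± 4.66 CPM (SD, n = 3) with the control siRNA, at 65.9 ± 6.45 CPM where the label read siRNA A and at 47.5 ± 2.40 CPM where it read siRNA B, log2 differences from control of 1.29 and 0.83 (limma, adjusted p = 1.86e-05 and 5.90e-04). The targeted RNA was thus higher, not lower, in the libraries labelled with the siRNAs against it, and every direction below is that between libraries as labelled. Of 10 markers of colon epithelium 8 had a row, with a summed level of 1769 to 1920 CPM in control, 3067 to 4049 CPM in siRNA A and 2369 to 2524 CPM in siRNA B libraries. The keratins KRT8, KRT18 and KRT19 made up most of this sum, while EPCAM was at 156 to 194 CPM in control, 111 to 128 CPM in siRNA A and 161 to 166 CPM in siRNA B libraries, and CDX2 at 13.3 to 14.7, 8.92 to 11.0 and 9.29 to 10.8 CPM. None of the 8 was at 0 in every library, though KRT20 had only 1 to 17 reads. Markers of leukocytes, endothelium and fibroblasts had a row for 5 of 12 and summed to between 9.82 and 18.5 CPM in all libraries, most of it from COL1A1. Fewer cells of a kind and less RNA per cell cannot be told apart in such bulk RNA, and the part of these marker levels in the results was not tested.

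The members, and the lists further below, were chosen with earlier results of these data known, so their counts are a description. After siRNA A, 8 of the 9 measured members rose and none fell, whereas 23.9% of all tested genes rose and 27.6% fell. The 8 were HIF1A, the angiogenic factor VEGFA, the vasoactive peptide precursor ADM, the mitophagy receptor BNIP3, the prolyl hydroxylase EGLN3, the ankyrin repeat gene ANKRD37, the collagen prolyl hydroxylase subunit P4HA1 and the glucose transporter SLC2A1. After siRNA B, 3 of the 9 rose and none fell (15.6% and 18.3% of all tested genes), namely VEGFA, ADM and P4HA1. These 3 were the members that rose with both siRNAs, as did 10.2% of all tested genes. The median log2 fold change of the members was 0.58 after siRNA A and 0.26 after siRNA B, beside medians over all tested genes of -0.02 and 0.0043. Without any overlap between groups, all siRNA A libraries lay above all control libraries for 7 members (27.6% of all tested genes) and all siRNA B libraries for 4 (22.5%).

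**Figure D1:**
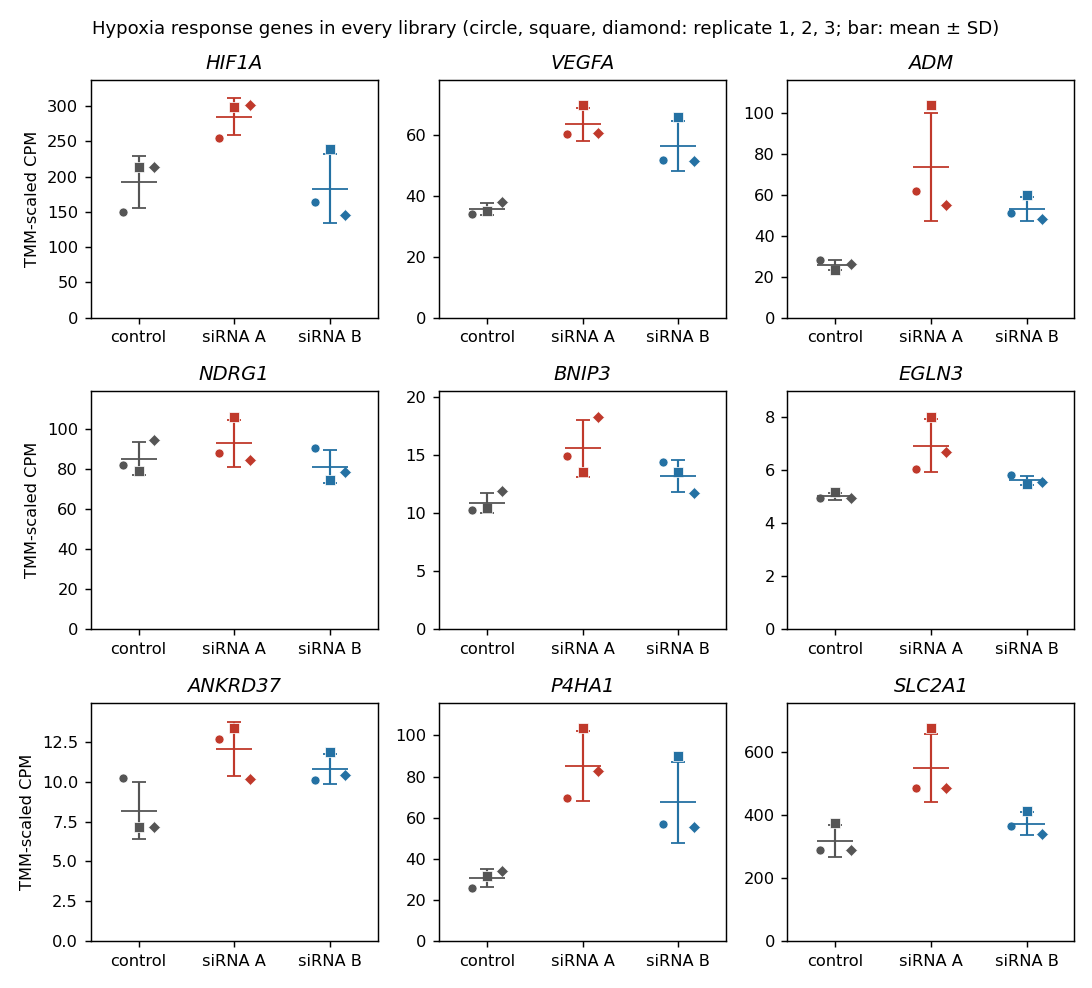
Level of each measured hypoxia response gene (TMM-scaled CPM, linear axes from 0) in the 3 libraries of each group, with circles, squares and diamonds for replicates 1, 2 and 3 and bars for mean ± SD. For VEGFA, ADM and P4HA1 every siRNA A and siRNA B point sits above every control point, while the points of NDRG1 overlap between all groups.

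The scaling of the libraries bears on these counts. When CPM were scaled by library totals alone, the median of all genes moved to -0.34 after siRNA A and -0.18 after siRNA B, and the share of higher among all called genes went from 46.4% to 16.1% and from 46.0% to 18.8%. On that scale 4 members rose after siRNA A (VEGFA, ADM, P4HA1 and SLC2A1, against 9.05% of all tested genes) and VEGFA, ADM and P4HA1 after siRNA B (against 6.9%), and none fell. All changes reported here are thus relative to the bulk of genes.

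HIF1A encodes the oxygen-regulated subunit of the HIF-1 transcription factor and lies on chromosome 14 at 62162231 to 62214977 (GRCh37, plus strand). It was measured at 150.0, 214 and 214 CPM in control, at 255, 298 and 301 CPM in siRNA A and at 165, 239 and 145 CPM in siRNA B libraries. All siRNA A libraries were above all control and all siRNA B libraries, and the siRNA B libraries lay within, above and below the control range, respectively. HIF1A rose by 0.58 (SE 0.18) on the log2 scale after siRNA A (limma, adjusted p = 0.0212). After siRNA B the difference from control was -0.09, with a 95% interval of -0.49 to 0.32 (limma, adjusted p = 0.747), and it was 0.06 without siRNA B replicate 3. The direct comparison put HIF1A 0.66 higher after siRNA A than after siRNA B (limma, adjusted p = 0.0151). The siRNA A call was lost under library totals alone (0.21, adjusted p = 0.332), without control replicate 1 (0.41, adjusted p = 0.0891), without siRNA A replicate 2 (0.54, adjusted p = 0.0600) and without siRNA A replicate 3 (0.53, adjusted p = 0.0683), while the direct comparison lost its call without siRNA A replicate 3, siRNA B replicate 1 or siRNA B replicate 3, with adjusted p from 0.0530 to 0.0587. Exons of HIF1A overlap those of HIF1A-AS1 on the other strand, which had 1.71 ± 0.943 CPM in control and 2.46 ± 1.08 CPM in siRNA A libraries (SD, n = 3), so the reads of the pair cannot be told apart if strand was not used in counting.

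Of the members that sense or limit the pathway, EGLN3 is a prolyl hydroxylase that marks HIF1A protein and is itself a HIF target (chromosome 14, 34393433 to 34931980, minus strand, GRCh37). Its levels were 4.94, 5.17 and 4.94 CPM in control, 6.06, 8.01 and 6.70 CPM in siRNA A and 5.81, 5.49 and 5.57 CPM in siRNA B libraries. The groups did not overlap, and the siRNA A libraries were the highest. EGLN3 rose by 0.39 (SE 0.13) after siRNA A (limma, adjusted p = 0.0221) and was 0.14 higher after siRNA B, which did not pass (95% interval -0.14 to 0.41, limma, adjusted p = 0.428). Under library totals alone the siRNA A value fell to 0.07 (adjusted p = 0.662) and that of siRNA B turned to -0.04, and the siRNA A call was also lost without control replicate 1 (0.38, adjusted p = 0.0547), control replicate 3 (0.37, adjusted p = 0.0649) or siRNA A replicate 2 (0.30, adjusted p = 0.0806).

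Among the secreted factors, VEGFA drives the growth of blood vessels (chromosome 6, 43737921 to 43754224, plus strand, GRCh37). It stood at 34.1, 35.1 and 37.9 CPM in control libraries, at 60.3, 69.9 and 60.9 CPM after siRNA A and at 52.0, 66.0 and 51.4 CPM after siRNA B. No siRNA library reached down to the control range. VEGFA rose by 0.82 (SE 0.12) after siRNA A, a 1.76-fold change (limma, adjusted p = 1.86e-04), and by 0.64 after siRNA B, a 1.56-fold change (limma, adjusted p = 0.00168). The siRNAs differed by 0.18, with a 95% interval of -0.08 to 0.43 (limma, adjusted p = 0.259). Both calls were kept under every other scaling, filter and test tried and without any single library.

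ADM encodes the precursor of adrenomedullin, a peptide that widens vessels (chromosome 11, 10326620 to 10328944, plus strand, GRCh37). Control libraries held 28.1, 23.2 and 26.1 CPM, siRNA A libraries 61.9, 104 and 55.0 CPM, and siRNA B libraries 51.3, 59.8 and 48.4 CPM. The lowest siRNA library thus stood well above the highest control, and siRNA A replicate 2 stood apart from the other siRNA A libraries. ADM rose by 1.43 (SE 0.20), or 2.69-fold, after siRNA A (limma, adjusted p = 1.34e-04) and by 1.01, or 2.02-fold, after siRNA B (limma, adjusted p = 0.00222). The siRNAs differed by 0.41 (95% interval -0.02 to 0.84, limma, adjusted p = 0.120), which passed only without siRNA A replicate 3 (0.59, adjusted p = 0.0440). Over the libraries left out in turn, the siRNA A change of ADM ranged from 1.15 to 1.61 and that of siRNA B from 0.92 to 1.08, all called.

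P4HA1 and ADM showed the largest changes of the measured members after both siRNAs. P4HA1 encodes the catalytic alpha subunit of the prolyl 4-hydroxylase that stabilizes collagen (chromosome 10, 74766975 to 74856732, minus strand, GRCh37). Its levels were 26.0, 31.7 and 34.1 CPM in control, 69.3, 103 and 82.7 CPM in siRNA A and 56.9, 90.0 and 55.3 CPM in siRNA B libraries. All 6 siRNA libraries were above all controls, and the siRNA A and siRNA B libraries overlapped. P4HA1 rose by 1.44 (SE 0.19), or 2.71-fold, after siRNA A (limma, adjusted p = 1.20e-04) and by 1.09, or 2.13-fold, after siRNA B (limma, adjusted p = 0.00139). After siRNA A its change stood beside that of ADM, and the order of the pair turned with edgeR (1.48 for P4HA1 and 1.51 for ADM) and with DESeq2 (1.51 and 1.54). The difference of 0.35 between the siRNAs did not pass (95% interval -0.07 to 0.77, limma, adjusted p = 0.178) but did without siRNA B replicate 2 (0.57, adjusted p = 0.0184). Its exons overlap those of ENSG00000237768, a non-coding gene on the other strand with mean levels of 0.704 to 1.41 CPM.

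SLC2A1, the glucose transporter GLUT1, was the most abundant measured member, per length of transcript too (chromosome 1, 43391024 to 43424564, minus strand, GRCh37). It was measured at 287, 375 and 289 CPM in control, at 487, 675 and 485 CPM in siRNA A and at 365, 413 and 340.2 CPM in siRNA B libraries. The siRNA A libraries were above all others, while those of siRNA B overlapped the control range. SLC2A1 rose by 0.78 (SE 0.15), or 1.72-fold, after siRNA A (limma, adjusted p = 0.00127), whereas siRNA B was 0.24 above control (95% interval -0.09 to 0.57, limma, adjusted p = 0.251). The direct comparison put it 0.54 higher after siRNA A (limma, adjusted p = 0.0155), a call that was lost under library totals alone (0.39, adjusted p = 0.0577), without siRNA A replicate 2 (0.39, adjusted p = 0.0564) and without siRNA B replicate 3 (0.48, adjusted p = 0.0546). HIF1A and SLC2A1 were the 2 members that were higher after siRNA A in this direct comparison and none was lower, while 17.6% of all tested genes were higher and 19.5% lower.

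BNIP3, which marks mitochondria for removal (chromosome 10, 133781188 to 133795471, minus strand, GRCh37), was at 10.3, 10.4 and 11.9 CPM in control, at 14.9, 13.5 and 18.3 CPM in siRNA A and at 14.4, 13.6 and 11.7 CPM in siRNA B libraries. Only the siRNA A libraries were all above control. BNIP3 rose by 0.47 (SE 0.14) after siRNA A (limma, adjusted p = 0.0124), and was 0.26 higher after siRNA B (95% interval -0.04 to 0.56, limma, adjusted p = 0.164). The siRNA A call was lost under library totals alone (0.13, adjusted p = 0.481) and without siRNA A replicate 3 (0.36, adjusted p = 0.0549). BNIP3 has near-identical processed pseudogenes, so its reads could have been split in counting.

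ANKRD37 encodes a small protein of ankyrin repeats (chromosome 4, 186317175 to 186321782, plus strand, GRCh37). It was measured at 10.2, 7.17 and 7.16 CPM in control, at 12.7, 13.4 and 10.2 CPM in siRNA A and at 10.2, 11.9 and 10.4 CPM in siRNA B libraries. Control replicate 1 reached the lowest siRNA libraries, so the groups overlapped. ANKRD37 rose by 0.52 (SE 0.16) after siRNA A (limma, adjusted p = 0.0155). After siRNA B it was 0.38 higher (limma, adjusted p = 0.0822), which passed without control replicate 1 (0.52, adjusted p = 0.0223). The siRNA A call was lost under library totals alone (0.18, adjusted p = 0.325) and also without control replicate 2, control replicate 3, siRNA A replicate 1 or siRNA A replicate 2, with log2 values from 0.43 to 0.48 and adjusted p up to 0.0734. Its exons overlap those of UFSP2 on the other strand, which had 25.4 ± 0.681 CPM in control and differed from it by 0.11 after siRNA A (limma, adjusted p = 0.395), so reads of the pair cannot be told apart if strand was not used.

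NDRG1, a stress-responsive gene of the N-myc downstream regulated family, was the single measured member that passed in no comparison. Its levels were 82.2, 79.3 and 94.7 CPM in control, 88.0, 106 and 84.6 CPM in siRNA A and 90.8, 74.5 and 78.8 CPM in siRNA B libraries. The ranges of the groups overlapped throughout. The difference from control was 0.12 after siRNA A (95% interval -0.14 to 0.38, limma, adjusted p = 0.435) and -0.07 after siRNA B (95% interval -0.33 to 0.19, limma, adjusted p = 0.688), and the siRNA A value turned to -0.25 under library totals alone.

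**Figure D2:**
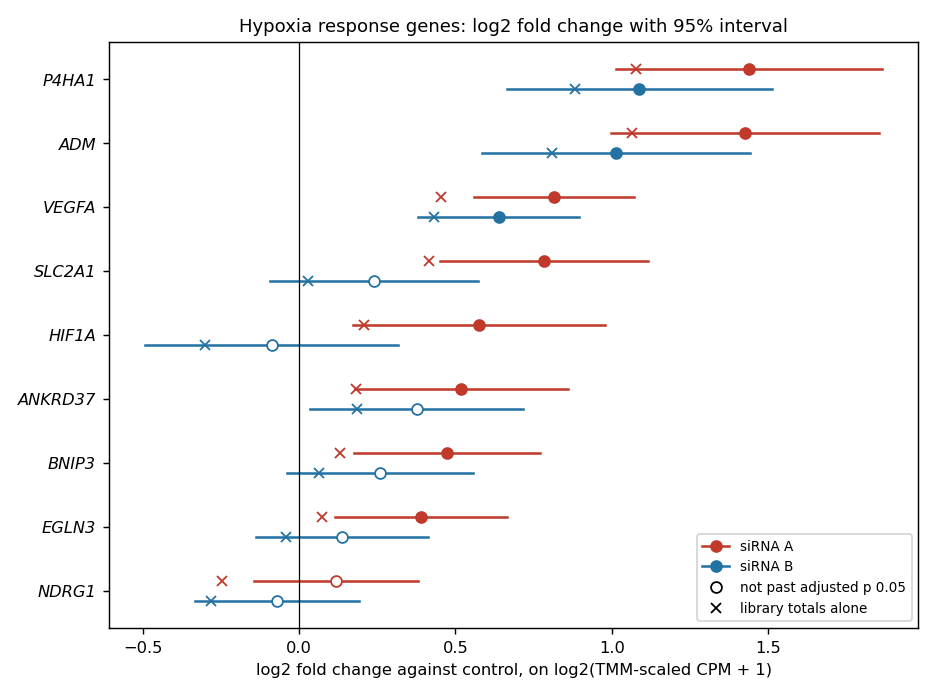
Difference from control in log2(TMM-scaled CPM + 1) for each measured hypoxia response gene, with 95% intervals from limma for siRNA A (red) and siRNA B (blue), filled where the adjusted p was below 0.05, and crosses for the values under library totals alone. P4HA1, ADM and VEGFA are filled for both siRNAs, and the crosses lie to the left of the circles, for NDRG1 after siRNA A and EGLN3 after siRNA B on the other side of 0.

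Libraries of the same group also differed in the levels of the members. Replicate 2 had the fewest reads in each group (19313669 in control, 15566530 in siRNA A and 16340856 in siRNA B). It was the highest library of its group for 7 of 9 members in siRNA A and for 6 of 9 in siRNA B, compared with 38.1% and 40.3% of all tested genes, and for 3 of 9 in control (34.5%). The part of this library difference in the results was not tested, and the calls that changed without a library are given with each gene.

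Compared per kilobase of canonical transcript, the control levels ran from 93.7 TMM-scaled CPM per kilobase for SLC2A1 through 48.8 for HIF1A, 28.2 for NDRG1, 17.3 for ADM, 11.1 for P4HA1, 10.5 for ANKRD37, 9.90 for VEGFA and 7.06 for BNIP3 to 1.85 for EGLN3. Neighbours in this order did not overlap between the control libraries, except P4HA1 with ANKRD37 and ANKRD37 with VEGFA. In siRNA A libraries the means of P4HA1 and ADM had reached 31.1 and 49.4 CPM per kilobase, next to 30.7 for NDRG1. Across the 9 libraries the log2 levels most like those of HIF1A included PPTC7 (Pearson r = 0.984) and FAM120A (0.980), and those most like P4HA1 were DSC2 (0.995), MTMR2 (0.994) and SLC39A6 (0.993), given as a description over libraries that share their groups and scaling.

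The machinery that senses oxygen moved in both directions. Of 14 tested genes, 6 rose and 3 fell after siRNA A and 5 rose and 4 fell after siRNA B, beside 23.9% and 27.6% of all tested genes after siRNA A and 15.6% and 18.3% after siRNA B. Under library totals alone 4 rose and 5 fell after siRNA A (9.05% and 47% of all tested genes) and 2 rose and 4 fell after siRNA B (6.9% and 29.7%). EGLN1, the main prolyl hydroxylase acting on HIF1A protein, fell from 56.0, 61.6 and 63.6 CPM in control to 20.1, 29.3 and 28.7 CPM after siRNA A and 30.8, 31.7 and 29.4 CPM after siRNA B, a log2 change of -1.20 and -0.96 (limma, adjusted p = 4.03e-05 and 3.47e-04). It thus went opposite to its relative EGLN3 after siRNA A. EPAS1, which encodes the sister factor HIF-2 alpha, fell by 0.86 after siRNA A and by 0.62 after siRNA B (limma, adjusted p = 0.00129 and 0.0141), the latter not passing without control replicate 2 (-0.50, adjusted p = 0.0582), and ARNT2, a partner of HIF factors, fell by 0.96 and 0.76 (limma, adjusted p = 4.26e-04 and 0.00337) from a control level of 3.73 CPM. RBX1, the RING subunit of the VHL ligase, rose by 1.10 and 0.90 (limma, adjusted p = 4.78e-05 and 3.52e-04). The coactivator EP300 rose by 0.68 after siRNA A and by 0.64 after siRNA B (limma, adjusted p = 0.00152 and 0.00428). CITED2, which competes with HIF factors for that coactivator, rose by 1.57 after siRNA A (limma, adjusted p = 0.00178), from a mean of 20.1 CPM in control to 47.9, 111 and 43.1 CPM, and was 0.73 higher after siRNA B, which did not pass (limma, adjusted p = 0.101). ARNT and VHL passed in neither comparison, with differences of -0.04 and -0.10 after siRNA A and of 0.19 and 0.07 after siRNA B.

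**Figure D3:**
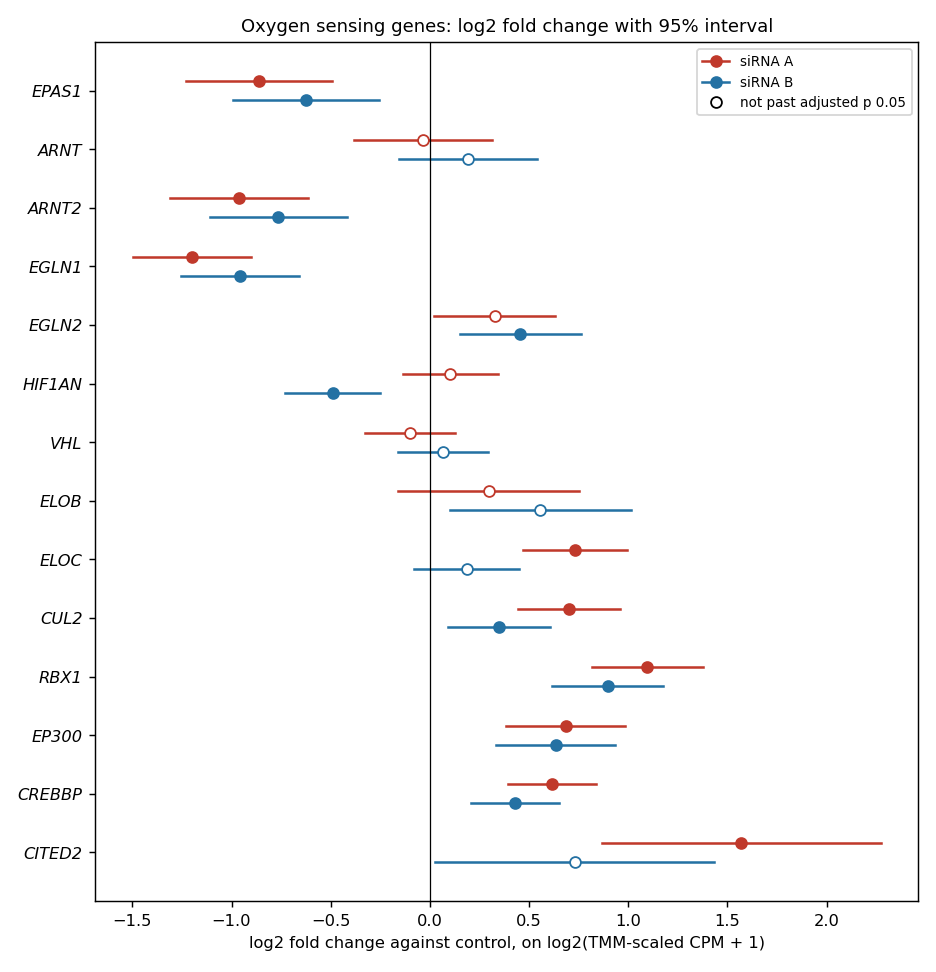
Difference from control in log2(TMM-scaled CPM + 1) for 14 genes of oxygen sensing, with 95% intervals from limma for siRNA A (red) and siRNA B (blue), filled where the adjusted p was below 0.05. EGLN1, ARNT2 and EPAS1 lie left of 0 with both siRNAs, RBX1, EP300, CREBBP and CUL2 right of 0 with both, and ARNT and VHL are open for both.

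The HIF targets of glucose metabolism rose more often than they fell, except that the balance turned after siRNA B under library totals alone. Of 20 tested genes, 13 rose and 2 fell after siRNA A, with a median of 0.63, and 10 rose and 3 fell after siRNA B, with a median of 0.30. Of all tested genes, 23.9% rose and 27.6% fell after siRNA A, and 15.6% and 18.3% after siRNA B. Under library totals alone 9 rose and 5 fell after siRNA A (all tested genes, 9.05% and 47%), and 3 rose and 5 fell after siRNA B (6.9% and 29.7%). The glycolytic enzymes PGAM1 (1.11), ENO1 (0.98), LDHA (0.97), PKM (0.94) and ALDOA (0.91) rose most after siRNA A (limma, adjusted p from 3.70e-05 to 5.27e-04), and LDHA, which makes lactate, went from 724 ± 44.9 CPM in control to 1423 ± 93.1 CPM. After siRNA B, ALDOA (0.62), the lactate exporter SLC16A3 (0.62) and PGAM1 (0.64) rose (limma, adjusted p from 3.70e-04 to 0.0214), while the glycogen synthase GYS1 (-0.69) and the glycolytic regulator PFKFB3 (-0.59) fell (limma, adjusted p = 4.33e-04 and 0.00232). Both also fell after siRNA A, GYS1 by 0.84 and PFKFB3 by 0.45 (limma, adjusted p = 5.83e-05 and 0.00612). ENO1 (0.59) and LDHA (0.46) rose after siRNA B too, and SLC16A3 (0.63) after siRNA A (limma, adjusted p from 1.70e-04 to 0.00821). PKM was 0.29 higher after siRNA B, which did not pass (limma, adjusted p = 0.119). The siRNA B call of PGAM1 was lost under library totals alone (0.43, adjusted p = 0.103) and also without control replicate 3, siRNA B replicate 1 or siRNA B replicate 3, with adjusted p from 0.0716 to 0.103. Several glycolytic enzymes, PGAM1, LDHA and ENO1 among them, have processed pseudogenes that could take part of their reads.

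Other HIF targets were mixed. Of 35 tested genes, 14 rose and 6 fell after siRNA A (12 and 12 under library totals alone) and 15 rose and 4 fell after siRNA B (7 and 4). The shares of all tested genes that rose and fell were 23.9% and 27.6% after siRNA A (9.05% and 47% under library totals alone) and 15.6% and 18.3% after siRNA B (6.9% and 29.7%). The mitophagy receptor BNIP3L, a close relative of BNIP3, rose by 1.002 after siRNA A and by 1.07 after siRNA B (limma, adjusted p = 1.13e-04 and 1.55e-04), from 38.4, 28.1 and 41.5 CPM in control to 70.2, 73.8 and 72.5 CPM and to 71.4, 82.2 and 73.0 CPM. The hormone STC2 rose by 1.15 and 0.81 after siRNA A and B, respectively (limma, adjusted p = 1.69e-04 and 0.00289). The growth factor PDGFB (1.19), the vasoconstrictor EDN1 (1.21) and the circadian repressor BHLHE40 (1.15) rose after siRNA A and ZNF395 fell by 1.41 (limma, adjusted p from 2.48e-06 to 0.00530), EDN1 resting on 5 to 74 reads. After siRNA B, BHLHE40 rose by 0.65 and ZNF395 fell by 0.42 (limma, adjusted p = 0.0187 and 0.00781), while PDGFB and EDN1 did not pass. The ectonucleotidase NT5E (1.26) and the mTOR inhibitor DDIT4 (0.82) rose after siRNA B (limma, adjusted p = 2.50e-04 and 0.00750), and also after siRNA A, by 0.97 and 0.58 (limma, adjusted p = 6.83e-04 and 0.0262). For DDIT4, the siRNA A libraries (29.9, 32.0 and 21.0 CPM) overlapped the control ones (22.3, 13.2 and 19.2 CPM). MXI1, an antagonist of MYC, fell by 0.84 after siRNA B (limma, adjusted p = 1.43e-04), from 36.7, 38.3 and 32.5 CPM to 20.3, 20.3 and 18.3 CPM, while its siRNA A libraries held 59.0, 64.2 and 57.8 CPM. P4HA2, a relative of P4HA1, fell after siRNA A (-0.82, limma, adjusted p = 6.69e-04) and so went opposite to P4HA1 there. After siRNA B the difference of P4HA2 from control was 0.05 (limma, adjusted p = 0.811).

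Partners and relatives of the members showed no common direction. Of 12 tested genes, 3 rose and 3 fell after siRNA A (0 and 4 under library totals alone) and 2 rose and 4 fell after siRNA B (1 and 4). Beside these counts stand 23.9% higher and 27.6% lower of all tested genes after siRNA A (9.05% and 47% under library totals alone) and 15.6% and 18.3% after siRNA B (6.9% and 29.7%). P4HB, the beta subunit that joins P4HA1 in the collagen hydroxylase, rose by 0.55 and 0.68 after siRNA A and B, respectively (limma, adjusted p = 0.00185 and 9.61e-04), and its siRNA A call was lost under library totals alone (0.18, adjusted p = 0.189). RAMP1, a receptor component that can serve adrenomedullin-family peptides, fell by 0.85 and 0.65 (limma, adjusted p = 0.00310 and 0.0207), though with siRNA B it did not pass without control replicate 1, control replicate 2 or siRNA B replicate 2 (adjusted p from 0.0554 to 0.0668). The listed receptor genes CALCRL, RAMP3 and ACKR3 had no row and RAMP2 was not tested, so nothing is said here on the receptor of ADM itself. Of the relatives of NDRG1, NDRG4 fell by 0.87 and 0.57 after siRNA A and B, respectively (limma, adjusted p = 2.10e-04 and 0.00523), and NDRG3 and NDRG2 fell by 0.76 and 0.55 after siRNA B (limma, adjusted p = 5.18e-04 and 0.0142), NDRG2 not passing without control replicate 3 (-0.43, adjusted p = 0.0568). NDRG3 fell after siRNA A too, by 0.46 (limma, adjusted p = 0.00592), whereas NDRG2 did not pass there (0.0059, limma, adjusted p = 0.978). BNIP1 (0.63) and CA13 (0.50) rose after siRNA A (limma, adjusted p = 0.00150 and 0.00912), and neither passed under library totals alone. Of the listed genes named here, CUL2, EP300, P4HA2, P4HB, SLC16A3 and ZNF395 share exon positions with another gene that has a row. ALDOA, ARNT2, BHLHE40, BNIP1, BNIP3L, CA13, EGLN1, ENO1, MXI1, NDRG2, NDRG3 and VHL share them with another annotated gene. The reads of all these genes could thus have been split.

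**Figure D4:**
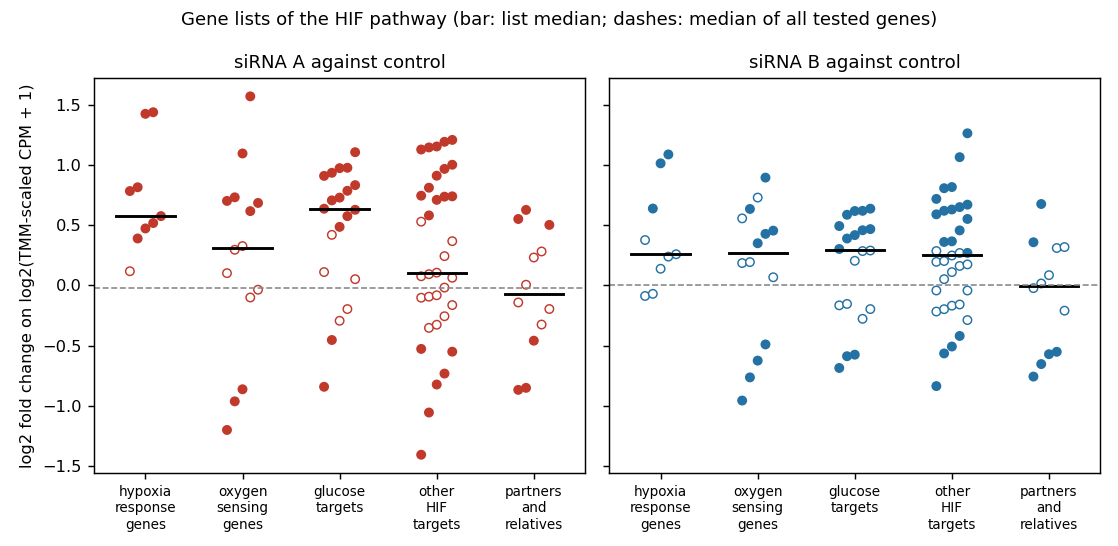
Difference from control in log2(TMM-scaled CPM + 1) for every tested gene of 5 lists (9 hypoxia response genes, 14 oxygen sensing genes, 20 glucose targets, 35 other HIF targets, 12 partners and relatives), for siRNA A (left) and siRNA B (right), filled where limma's adjusted p was below 0.05. Black bars are list medians, dashed lines the median of all tested genes, and the members' medians of 0.58 and 0.26 stand above it.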

How the data were processed

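Oligo-dT purified RNA of HCT116 cells was sequenced as 50-base single ends. The authors deposited CPM per gene, and the submitters' processing notes name TopHat2, HTSeq and GRCh37 (hg19), without roles. Use of strand was not given in the sources used here. All values (100%) were whole multiples of 1 read within 0.01 reads, so whole reads were recovered. Groups came from the sample titles. The 10 members and the lists were chosen with earlier results of these data known. Genes with at least 1 CPM in 3 of 9 libraries were tested with limma 3.58.1 (R 4.3.3) on log2(TMM-scaled CPM + 1), with a variance trend, a mean per group and Benjamini-Hochberg adjustment over 13893 genes (threshold 0.05). This code was tested on simulated data. Alternatives were library totals alone, DESeq2 size factors, a pseudocount of 0.1 CPM, no filter, edgeR 4.0.16 and DESeq2 1.42.0 on the recovered reads, a replicate block, and leaving out each library. Same-numbered control and siRNA A libraries deviated together for replicates 1 and 2 (r = 0.65 and 0.41). For replicate 3 the r was 0.13, close to the 0.09 of control replicate 3 with siRNA A replicate 2. Replicate 2 of siRNA B also deviated together with replicate 2 of control and of siRNA A (r = 0.44 each). Replicate 3 of siRNA B did not (r = -0.39 and 0.02 with the same-numbered control and siRNA A libraries). The block is thus read as at most a partial pairing. The reported calls come from the fit without a block. Named genes were all members and, of each list, the 5 called genes with the largest absolute log2 fold change in each comparison with control, plus, for HIF1A and the member with the largest limma change (P4HA1), the 3 genes with the highest r, of which 1 for HIF1A is not reported here. ARNT, VHL, CREBBP, CUL2, HK2, KDM4B and P4HA2 were named after their values were seen. Of 15354 identifiers 14871 matched the GRCh37 annotation (GENCODE). Promoters were taken from RefSeq (GRCh38.p14).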

Additional observations from a re-analysis of the deposited data

Results flagged for a closer look

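Of the members and the list genes named for their largest called changes against control, those below differed between the siRNAs in the direct comparison (limma, adjusted p below 0.05). In this fit their responses to siRNA A and siRNA B were thus not the same size. The direct calls of HIF1A, SLC2A1, ENO1 and CA13 were lost under some alternatives, given with each gene here or above. HIF1A was 0.66 and SLC2A1 0.54 higher with siRNA A (adjusted p = 0.0151 and 0.0155), with differences from control of 0.58 and -0.09, and of 0.78 and 0.24. Of all 20 tested glucose targets, 8 were higher and 1 lower with siRNA A than with siRNA B (17.6% and 19.5% of all tested genes). The largest difference was that of HK2 (1.06, limma, adjusted p = 1.20e-04). HK2 rose by 0.49 after siRNA A and fell by 0.57 after siRNA B (limma, adjusted p = 0.00788 and 0.00521). Among those named above, PKM (0.65), LDHA (0.52) and ENO1 (0.39) were higher with siRNA A (adjusted p = 0.00302, 0.00366 and 0.0496). ENO1 lost its call with library totals alone, with no filter on low values, and without control replicate 3, siRNA A replicate 1, siRNA A replicate 2 or any siRNA B replicate. Of all 35 tested other HIF targets, 7 were higher and 8 lower with siRNA A, the lowest being KDM4B (-1.01, limma, adjusted p = 4.73e-04). Among those named above, MXI1 was 1.57 higher with siRNA A and lay on opposite sides of control with the siRNAs (0.74 and -0.84, adjusted p of the difference = 3.98e-06). EDN1 was 1.43 and PDGFB 0.92 higher (adjusted p = 0.00332 and 4.41e-04), and ZNF395 was lower (-0.99, adjusted p = 4.93e-05). NDRG2 (0.56) and CA13 (0.42) were higher with siRNA A (adjusted p = 0.0124 and 0.0316), CA13 losing its call with library totals alone (0.27, adjusted p = 0.189) and likewise without siRNA A replicate 1, siRNA A replicate 3, siRNA B replicate 2 or siRNA B replicate 3.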

How the results depend on the processing

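The counts of called members were the same with DESeq2 size factors, a pseudocount of 0.1 CPM, no filter, edgeR and DESeq2 on reads (8 with siRNA A, 3 with siRNA B). Library totals alone left 4 members called with siRNA A against control and 1 with siRNA A against siRNA B, 8 glucose targets with siRNA B and 11 other HIF targets with siRNA B. Leaving out 1 library in turn gave 5 to 8 members with siRNA A, 3 to 4 with siRNA B, 0 to 3 between the siRNAs, 8 to 12 glucose targets and 11 to 19 other HIF targets with siRNA B. The low member counts came without siRNA A replicate 2 (5 with siRNA A) and without siRNA B replicate 3 (0 between the siRNAs), and those of 8 and 11 without siRNA B replicate 1, for other HIF targets also without control replicate 1 or 2. With a replicate block over all 9 libraries 8 members were called with siRNA A, 4 with siRNA B (ANKRD37 joining, 0.38) and 3 between the siRNAs (P4HA1 joining, 0.35), and no other call of a member changed. These 2 gains rest on siRNA B numbers that marked pairs only in part. For replicates 1, 2 and 3, r with same-numbered control libraries was 0.17, 0.44 and -0.39, and with siRNA A libraries 0.20, 0.44 and 0.02. Replicate 2 thus deviated together in all groups, whereas siRNA B replicate 3 correlated best with control replicate 1 (r = 0.68). Uncalled values that changed sign were HIF1A with siRNA B without siRNA B replicate 3 (0.0623, from -0.293 to 0.0623 over the libraries left out), and, with library totals alone, NDRG1 with siRNA A (-0.247), EGLN3 with siRNA B (-0.0407) and ANKRD37 between the siRNAs (-0.0023). Of 1264 values of named genes under an alternative, 1205 kept their direction and side of the threshold, 50 lost and 5 gained a call, and 4 changed sign. The cause of these changes was not tested. A list gene entered this count only for comparisons it was named for, or where its direct difference was called. For list genes the count thus starts from large called changes, which favours kept calls. Their other calls, such as DDIT4 after siRNA A, were not followed under the alternatives.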
